A study of Mus musculus with 6 samples.

Results

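The 34 genes described here encode the enzymes of glycolysis, the transporters and regulators that set its rate, other genes known to be induced by low oxygen, and the pair of HIF genes Hif1a and Vhl. They were chosen by symbol from a list of hypoxia and glycolysis genes, and all 34 were found among the 46603 genes of the deposited counts. By role they are 16 glycolytic enzymes, 6 transporters and regulators, 10 other hypoxia targets and 2 genes of HIF control. All 34 had enough counts to be tested, among 12767 genes in all.

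The RNA came from bone marrow-derived macrophages, which are macrophages grown in culture from marrow progenitors, of C57BL/6/J mice aged 7 weeks. All cells grew in high-glucose medium with L929-conditioned medium, were detached at day 6 and received medium conditioned by cancer cells 6 h after seeding. That medium held its lipids for 3 libraries (with lipids) and lacked them for the other 3 (without lipids). The sources used here do not give the cancer cells, the removal of lipids, the time of exposure, the oxygen level or the origin of replicates, and cells in plain medium were not analysed here. Since separate mice or dishes are not stated, each p-value covers only the spread among these libraries, which may be technical.

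Glycolysis splits glucose into pyruvate in the cytosol, and lactate dehydrogenase and the monocarboxylate carriers dispose of pyruvate as lactate. In oxygenated cells the prolyl hydroxylases encoded by the Egln genes mark HIF-1alpha for destruction through the von Hippel-Lindau protein. When oxygen is scarce, or when macrophages are activated, HIF-1alpha accumulates, binds DNA at short core motifs and induces most glycolytic enzymes along with genes for vessel growth, collagen hydroxylation and mitophagy. HIF-1alpha is controlled largely as a protein, which RNA sequencing does not measure.

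The HIF core motif was searched for as ACGTG or as its variant GCGTG, on both strands, in the 250 bases before each start site of the RefSeq promoter table (build GRCm38.p6). A start site was listed for 32 of the 34 members, and 29 of them held a match, or 90.6% beside 41.5% of all 27025 genes in the table. The first form alone was found for 20 members, or 62.5% beside 18.5%. Counted by window rather than by gene, 80.4% held a match beside 38.6% of all windows, and 50% held the first form beside 16.6%. The members' windows were also richer in G and C, with a median of 61.8% beside 52.4% over all windows. A match describes letters and is no evidence of binding. The windows of Hk3, Hk2 and Pgam1, which were lower with lipids, and the first of the Ldha windows, whose gene did not pass the test, are shown because their matches range from 1 to 5. They lie at chr13:55021386-55021635 (minus strand), chr6:82774455-82774704 (minus strand), chr19:41911621-41911870 (plus strand) and chr7:46845554-46845803 (plus strand). Each runs 5′ to 3′ toward the start site, and capitals mark the matches on either strand.
Hk3: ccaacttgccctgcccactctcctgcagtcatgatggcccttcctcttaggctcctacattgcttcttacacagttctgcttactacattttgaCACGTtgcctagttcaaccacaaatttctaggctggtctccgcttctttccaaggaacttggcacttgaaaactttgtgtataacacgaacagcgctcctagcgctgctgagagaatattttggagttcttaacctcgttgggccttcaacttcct
Hk2: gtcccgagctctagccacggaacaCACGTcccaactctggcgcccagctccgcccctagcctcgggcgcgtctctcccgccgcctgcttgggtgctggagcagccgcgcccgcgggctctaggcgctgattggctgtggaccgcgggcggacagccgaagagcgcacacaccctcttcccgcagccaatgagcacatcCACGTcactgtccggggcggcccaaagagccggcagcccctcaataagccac
Pgam1: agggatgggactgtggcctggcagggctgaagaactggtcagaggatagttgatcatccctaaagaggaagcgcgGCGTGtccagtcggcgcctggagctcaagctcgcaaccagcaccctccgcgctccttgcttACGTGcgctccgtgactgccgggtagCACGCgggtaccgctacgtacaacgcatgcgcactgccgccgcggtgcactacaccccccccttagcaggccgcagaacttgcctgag
Ldha: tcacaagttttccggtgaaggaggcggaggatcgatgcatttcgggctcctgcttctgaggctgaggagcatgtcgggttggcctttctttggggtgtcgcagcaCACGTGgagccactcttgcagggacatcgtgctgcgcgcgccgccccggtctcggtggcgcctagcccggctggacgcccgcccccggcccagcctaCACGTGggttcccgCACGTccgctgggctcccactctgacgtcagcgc
The match of Hk3 begins 156 bases before the start, and those of Hk2 begin 226 and 52 bases before it. Pgam1 holds 3 matches, at 175, 114 and 88 bases. Ldha holds 5, at 145, 144, 48, 47 and 34 bases, where neighbouring positions are 1 palindromic word read on both strands. The second Ldha window holds 1 match, and any relation of matches to fold changes was not tested.

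Macrophages given medium with lipids held less RNA of 7 of the 34 members, and 0 members were higher at the same threshold. The 7 were the hexokinases Hk3 and Hk2, the aldolase Aldoc, the mutase Pgam1, the glycolytic regulator Pfkfb3, the angiogenic factor Vegfa and the stress-induced gene Ndrg1. Hk3 was 1.62-fold higher without lipids, and the other 6 were 1.21-fold to 1.30-fold higher. Slc2a1, most core glycolytic enzymes, Bnip3, the Egln genes, Hif1a and Vhl did not pass the test. The 7 are 20.6% of the list, where over all tested genes 6.87% were lower and 4.58% higher with lipids, 11.5% in either direction (edgeR quasi-likelihood test, adjusted p threshold 0.05). The median log2 fold change, always with lipids minus without, was -0.074 over the members and -0.0032 over all tested genes. Negative values were found for 23 of the 34 members, beside 50.8% of all tested genes. The sign of the members' median turned when libraries were scaled by their totals alone, to 0.0027, and the median over all tested genes then became 0.073. In bulk RNA, fewer cells of a type and less RNA per cell cannot be told apart.

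**Figure D1:**
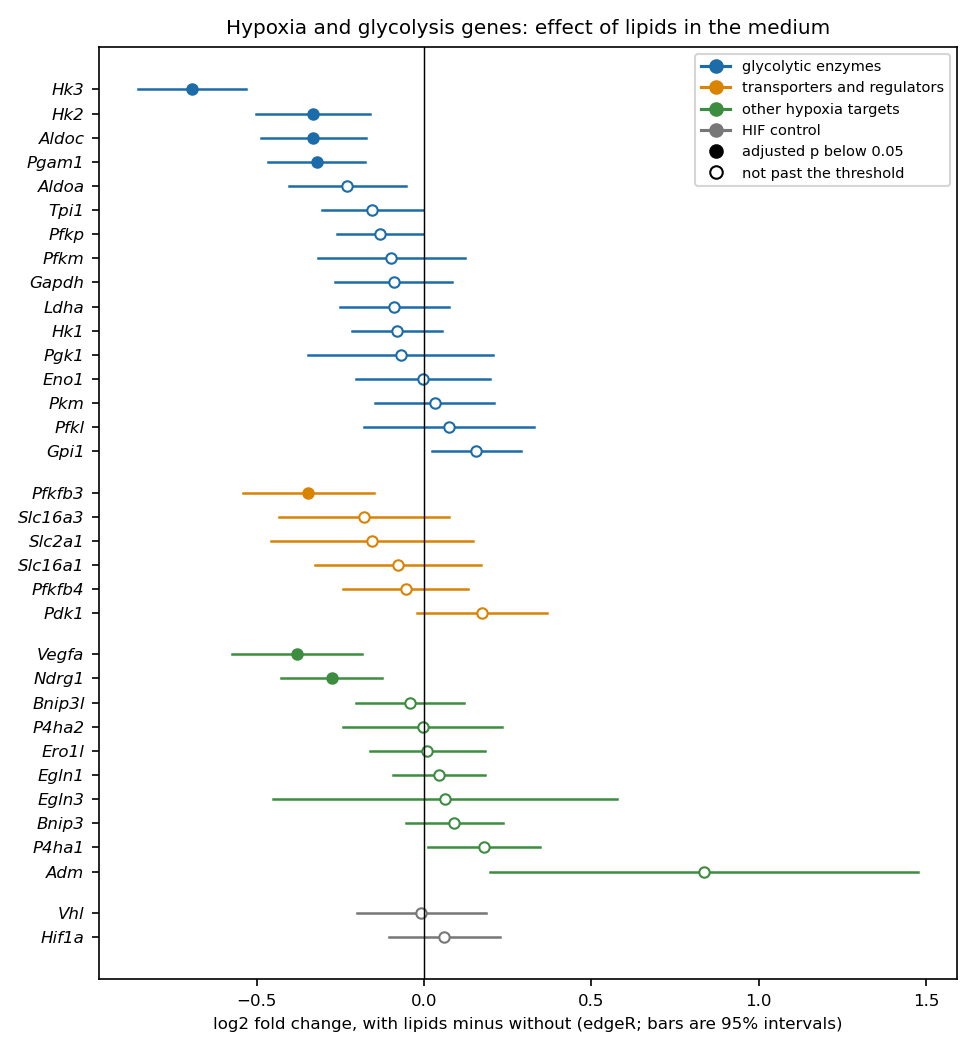
Log2 fold change of the 34 genes (with lipids minus without, x axis) from edgeR, grouped and coloured by role, with 95% intervals as bars and filled points for an adjusted p below 0.05. The 7 filled points all lie below 0, with Hk3 lowest at -0.69, and Adm has the widest interval.

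Most of these calls were lost in some of the fits that each left out 1 library. Over all tested genes such fits called 219 to 1566 higher and 423 to 1975 lower, beside 585 and 877 with all 6 libraries. The members called lower numbered 2, 2 and 1 when replicate 1, 2 or 3 with lipids was left out. They numbered 9, 1 and 6 when replicate 1, 2 or 3 lacking lipids was left out, and the first of these fits also called 3 members higher. Hk3 passed in all 6 fits, with a largest edgeR adjusted p of 0.0039. Aldoc and Pgam1 passed in 3 of the 6, Hk2, Pfkfb3 and Vegfa in 2 and Ndrg1 in 1, and all 7 kept a negative sign in every one of the 15 alternatives run.

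Libraries held 19429022 to 25323053 counts. Replicate 1 without lipids stood apart on the second principal component (22.0% of variance), at -19.5 beside -0.83 to 11.7 for the other 5. The 10 macrophage markers summed to 29520 to 29880 counts per 1000000 (CPM) with lipids and 29810 to 34760 CPM without, with Itgam and Fcgr1 higher and Cd68 lower with lipids. Neutrophil, dendritic cell, erythroid and epithelial lists summed to at most 1.59 CPM in any library, with Ly6g and Krt8 at 0 counts. The platelet list, mostly Pf4, was at 416 to 431 CPM with lipids and 222 to 258 CPM without. The T and NK cell list, mostly Cd4, was at 6.3 to 7.2 CPM with lipids and 11.2 to 17.5 CPM without, with Cd3e and Cd8a at 0. B cell markers, mostly Ighm, were at 30.0 to 31.3 CPM with lipids and 17.5 to 33.7 CPM without, with Pax5 at 0. Fibroblast markers were at 119.7 to 127 CPM with lipids and 124 to 169 CPM without. Endothelial markers, mostly Kdr, were at 31.6 to 34.7 CPM with lipids and 35.6 to 51.8 CPM without. Within that list Kdr was lower with lipids (edgeR adjusted p = 0.036) and the scarce Cdh5 higher (edgeR adjusted p = 0.044). The part of these lists in the results below was not tested.

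Hexokinases trap glucose in the cell as glucose-6-phosphate, and among the 7 called members this step held the one with the largest fold change. Hk3, the isozyme typical of myeloid cells (chromosome 13, 55005985 to 55021385, GRCm38), was at 173, 172 and 174 CPM with lipids and at 252, 309.6 and 277 CPM without. The lowest library without lipids lay far above the highest with them, and the spread was wider without lipids, with an SD of 28.9 CPM beside 0.960 CPM (n = 3 libraries per group). Its log2 fold change was -0.69 (SE 0.073, edgeR adjusted p = 0.00018). Hk3 shares 34 exon bases with Unc5a on the other strand, which held 194 counts over the 6 libraries beside 28666 for Hk3. Hk2, the inducible isozyme that binds mitochondria (chromosome 6, 82725025 to 82774454), was at 25.4, 26.9 and 27.5 CPM with lipids and at 33.2, 35.7 and 31.5 CPM without. Its groups did not overlap either (log2 fold change -0.33, SE 0.077, edgeR adjusted p = 0.019). Hk1, the isozyme found in most tissues, averaged 131 ± 2.77 CPM and 138 ± 7.73 CPM in the same order, where ± is the SD of 3 libraries here and below. Its groups overlapped, and its log2 fold change was -0.081 (95% interval -0.22 to 0.054, edgeR adjusted p = 0.44).

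The mix of hexokinases differed along with their levels. Per kb of exon, Hk3 made up 70.7%, 69.8% and 70.6% of the hexokinase counts with lipids and 75.5%, 78.7% and 78.6% without. Hk1 made up 22.9%, 23.4% and 22.5% with lipids and 18.3%, 15.7% and 15.9% without. Hk2 made up 6.42%, 6.75% and 6.88% with lipids and 6.14%, 5.59% and 5.53% without. None of the 3 shares overlapped between the groups, and those of Hk1 and Hk2 were higher with lipids. The shares of a library add up to a whole, so a smaller share of Hk3 makes the rest larger. In level, Hk1 (log2 fold change -0.081) and Hk2 (-0.33) were not higher with lipids. The log2 ratio of Hk3 to Hk1 in counts per kb of exon, which no scaling of libraries can move, was 1.62 ± 0.038 with lipids and 2.23 ± 0.16 without. Its difference of -0.61 had a p of 0.1 by an exact permutation test (two-sided), which is the lowest value 3 against 3 libraries can reach, and 0.34 after Benjamini-Hochberg adjustment over the 8 ratios of related genes. The ratio of Hk2 to Hk1, taken per kb too, was also lower in every library with lipids, by a difference of -0.25 (exact permutation p = 0.1, adjusted 0.34).

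**Figure D2:**
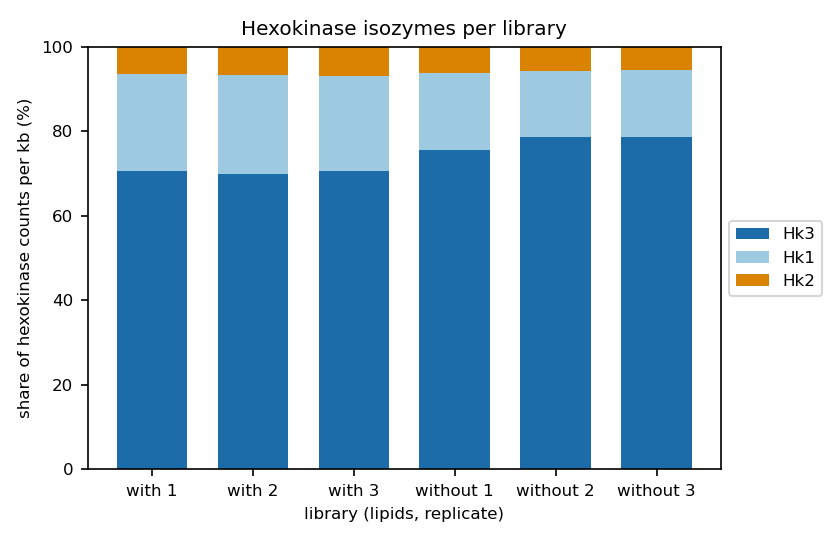
Share of each hexokinase isozyme in the summed counts per kb of exon (y axis, %) in each of the 6 libraries (x axis, lipids and replicate). Hk3 takes 69.8% to 70.7% with lipids and 75.5% to 78.7% without, and Hk1 takes the larger part of the rest.

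Of the glycolytic enzymes after the hexokinases, Aldoc and Pgam1 were lower with lipids. Aldoc, a minor aldolase that cleaves fructose-1,6-bisphosphate (chromosome 11, 78322968 to 78327781), was at 55.2, 53.1 and 52.6 CPM with lipids and at 66.4, 73.4 and 62.7 CPM without. Every library with lipids lay below every one without (log2 fold change -0.33, SE 0.072, edgeR adjusted p = 0.013). Pgam1, the phosphoglycerate mutase (chromosome 19, 41911923 to 41918660), was at 263, 271 and 262 CPM with lipids and at 351, 343 and 301 CPM without. It did not overlap either (log2 fold change -0.32, SE 0.066, edgeR adjusted p = 0.010). Pgam1 is less certain, because 36.2% of its 50-base words also occur in transcripts of 4 other genes, and the counting of reads with several matches is not given in the sources used here.

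Aldoa, the main aldolase, averaged 859 ± 74.0 CPM with lipids and 1007 ± 89.8 CPM without, and its groups overlapped (log2 fold change -0.23, SE 0.080, edgeR adjusted p = 0.092). It passed as lower once replicate 1 lacking lipids was left out (edgeR adjusted p = 0.0076) and when no low-count filter was used (0.0055). Gpi1, which isomerises glucose-6-phosphate, averaged 376 ± 21.4 CPM with lipids and 337 ± 10.9 CPM without. It was the single glycolytic enzyme with all libraries with lipids above all those without (log2 fold change 0.16, 95% interval 0.024 to 0.29, edgeR adjusted p = 0.12). Gpi1 passed as higher with totals alone as the scaling (edgeR adjusted p = 0.026) and once replicate 1 lacking lipids was left out (0.037). Pfkp, a phosphofructokinase isozyme, averaged 114 ± 2.46 CPM and 125 ± 5.10 CPM, apart in the other direction (log2 fold change -0.13, edgeR adjusted p = 0.17). It shares 748 exon bases with Pitrm1 on the other strand, and Pitrm1 held 9661 counts beside 15425 for Pfkp.

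Pfkl, the liver-type phosphofructokinase at the committed step, was at 51.2, 44.5 and 42.7 CPM with lipids and at 39.0, 52.6 and 40.1 CPM without. Replicate 2 without lipids was the highest of the 6 and replicate 1 without lipids the lowest (log2 fold change 0.073, 95% interval -0.18 to 0.33, edgeR adjusted p = 0.73). Gapdh, glyceraldehyde-3-phosphate dehydrogenase, was at 235, 215 and 208 CPM with lipids and at 231, 259 and 211 CPM without. Its groups overlapped almost fully (log2 fold change -0.092, 95% interval -0.27 to 0.085, edgeR adjusted p = 0.51). Ldha, which turns pyruvate into lactate, was at 823, 800.1 and 771 CPM with lipids and at 902, 893 and 751 CPM without. Both its highest and its lowest library lacked lipids (log2 fold change -0.089, 95% interval -0.25 to 0.074, edgeR adjusted p = 0.49).

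The other glycolytic enzymes also overlapped between groups. Pfkm, the muscle-type phosphofructokinase, had a log2 fold change of -0.098, the triose isomerase Tpi1 one of -0.15, the phosphoglycerate kinase Pgk1 one of -0.070 and the pyruvate kinase Pkm one of 0.031, with edgeR adjusted p of 0.58, 0.17, 0.77 and 0.85. In level Pkm was the most abundant member, at a mean of 614 CPM per kb of exon over the 6 libraries, followed by Aldoa at 321 and Ldha at 249. More than 20% of 50-base words were shared with other genes for 6 members, namely Pgk1 (53.9%), Pgam1, Eno1, Pkm, Gapdh and Bnip3l, and under 1% for 20 members. Of the 16 glycolytic enzymes 4 were lower, 0 higher and 12 not called. These are 25% lower, beside 6.87% lower and 4.58% higher over all tested genes. Negative values were found for 13 of the 16, beside 50.8% of all tested genes. The median over the 16 was -0.095, beside -0.0032 over all tested genes.

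Among the 6 transporters and regulators only Pfkfb3 passed, as lower, or 16.7% beside 6.87% of all tested genes. Pfkfb3 makes fructose-2,6-bisphosphate, a strong activator of phosphofructokinase (chromosome 2, 11471433 to 11554077), and was at 35.2, 38.2 and 36.3 CPM with lipids and at 46.7, 51.9 and 41.0 CPM without. The groups did not overlap (log2 fold change -0.35, SE 0.089, edgeR adjusted p = 0.030), but with totals alone as the scaling the call was lost (edgeR adjusted p = 0.063). Its relative Pfkfb4 averaged 50.7 ± 2.42 CPM and 52.7 ± 5.69 CPM and overlapped (log2 fold change -0.055, 95% interval -0.24 to 0.13). In counts per kb of exon the log2 ratio of Pfkfb4 to Pfkfb3 was 1.11 ± 0.11 with lipids and 0.81 ± 0.25 without, and it overlapped too (exact permutation p = 0.2, adjusted 0.34).

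Slc2a1, the glucose transporter GLUT1, was at 45.6, 35.2 and 38.7 CPM with lipids and at 40.1, 55.0 and 38.0 CPM without. Replicate 2 without lipids stood above the other 5 libraries, and the groups overlapped (log2 fold change -0.15, 95% interval -0.46 to 0.15, edgeR adjusted p = 0.52). The lactate exporter Slc16a3 was highest in that library too, at 50.6 CPM, where the other 5 lay between 35.3 and 39.2 CPM (log2 fold change -0.18, edgeR adjusted p = 0.36). It passed as lower once replicate 1 lacking lipids was left out (edgeR adjusted p = 0.035). The related carrier Slc16a1 averaged 15.7 ± 0.485 CPM with lipids and 16.6 ± 2.58 CPM without. Pdk1, the kinase that limits the entry of pyruvate into mitochondria, was at 85.7, 83.0 and 81.8 CPM with lipids and at 83.6, 74.8 and 64.0 CPM without. Only replicate 1 without lipids lay inside the range with lipids. Its log2 fold change was 0.17 (SE 0.088, edgeR adjusted p = 0.24) and became 0.27 once that library was left out (edgeR adjusted p = 0.0082).

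**Figure D3:**
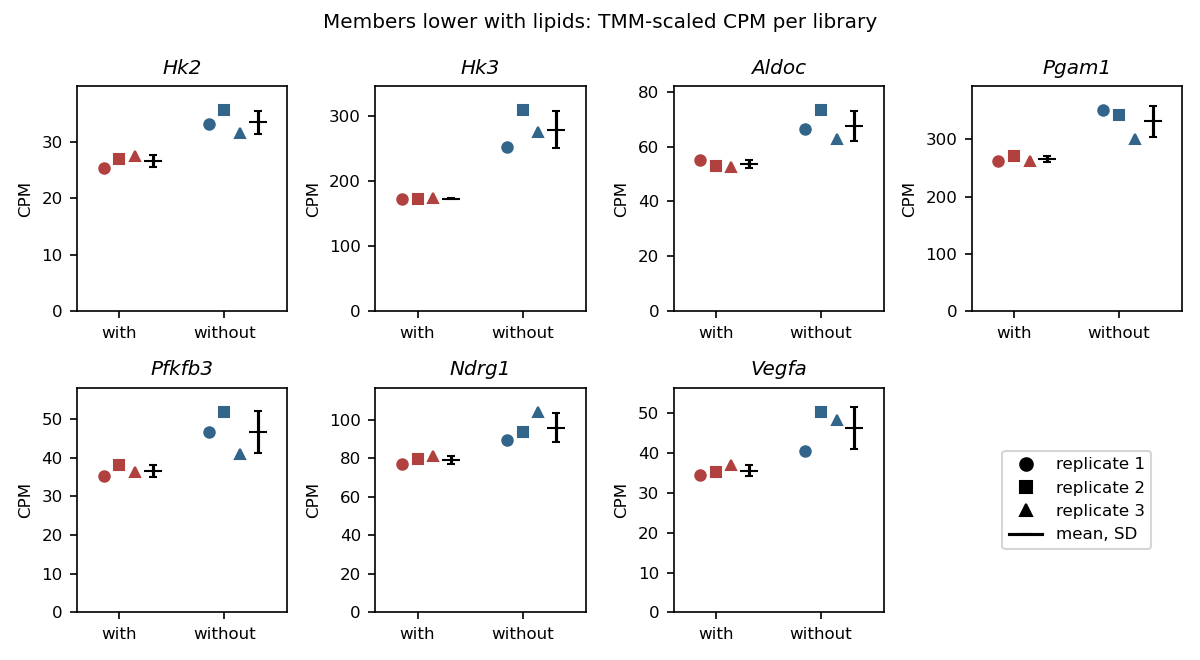
CPM after TMM scaling (y axis from 0) of the 7 genes past the threshold in each library with and without lipids, with the mean and SD of 3 libraries beside the points and a symbol for each replicate number. In each panel the 3 libraries with lipids lie below the 3 without, and for Hk3 the SD is 28.9 CPM without lipids and 0.960 CPM with them.

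Of the 10 other hypoxia targets 2 were lower, 0 higher and 8 not called. These are 20% lower from a short list, beside 6.87% lower and 4.58% higher over all tested genes. Vegfa, the vascular growth factor that hypoxic cells secrete (chromosome 17, 46016993 to 46032369), was at 34.4, 35.3 and 37.0 CPM with lipids and at 40.4, 50.4 and 48.2 CPM without. Ndrg1, a gene induced by hypoxia and stress (chromosome 15, 66929318 to 66969640), was at 77.3, 79.5 and 81.3 CPM with lipids and at 89.8, 94.0 and 104 CPM without. Both were lower in every library with lipids than in any without. The log2 fold change was -0.38 for Vegfa (SE 0.088, edgeR adjusted p = 0.018) and -0.28 for Ndrg1 (SE 0.069, edgeR adjusted p = 0.026). With totals alone as the scaling Ndrg1 lost its call (edgeR adjusted p = 0.078).

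Bnip3, a mitophagy receptor of the outer mitochondrial membrane, was at 38.1, 40.4 and 39.9 CPM with lipids and at 37.3, 36.9 and 37.0 CPM without. Its groups were apart by a small step in the other direction (log2 fold change 0.091, 95% interval -0.054 to 0.23, edgeR adjusted p = 0.42). Bnip3l, a related receptor, averaged 103 ± 6.79 CPM and 106 ± 7.81 CPM. P4ha1, a subunit of the enzyme that hydroxylates collagen, averaged 115 ± 7.96 CPM with lipids and 102 ± 8.38 CPM without (log2 fold change 0.18, 95% interval 0.010 to 0.35, edgeR adjusted p = 0.16). It passed as higher with totals alone as the scaling (edgeR adjusted p = 0.048) and once replicate 1 lacking lipids was left out (0.019). Its relative P4ha2 averaged 14.2 ± 1.69 CPM and 14.3 ± 0.929 CPM, and Ero1l, an oxidase of the endoplasmic reticulum, 83.8 ± 3.64 CPM and 83.3 ± 8.33 CPM.

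Adm, the vasodilator peptide adrenomedullin, had both the largest positive value and the lowest level among the members. It was at 1.27, 1.54 and 0.936 CPM with lipids and at 0.473, 0.901 and 0.735 CPM without, from 130 counts over the 6 libraries. The groups were narrowly apart, and the log2 fold change of 0.84 had a wide interval (0.20 to 1.48, edgeR adjusted p = 0.091). Only the fit with no low-count filter called it (edgeR adjusted p = 0.034). Counting groups that did not overlap, 8 of the 34 members were lower with lipids, beside 15.8% of all tested genes, and 3 were higher (Gpi1, Bnip3 and Adm), beside 14.7%, which together make 30.5% of all tested genes.

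Genes of oxygen sensing itself were not called. Hif1a was at 172, 181 and 181 CPM with lipids and at 187, 172 and 152 CPM without. Its highest and lowest libraries both lacked lipids (log2 fold change 0.061, 95% interval -0.10 to 0.23, edgeR adjusted p = 0.65). Egln1, the main prolyl hydroxylase and itself a HIF target, averaged 57.5 ± 2.15 CPM and 55.8 ± 1.56 CPM (log2 fold change 0.044, 95% interval -0.094 to 0.18). Egln3, another inducible hydroxylase, was low at 1.80 ± 0.559 CPM and 1.71 ± 0.156 CPM, and Vhl averaged 25.6 ± 2.08 CPM and 25.8 ± 1.61 CPM. Of 18 further genes of the HIF system 15 were tested and 0 passed (edgeR), where 11.5% of all tested genes passed in either direction. An unadjusted edgeR p under 0.05 was found for 2 of the 15, beside 3394 of all 12767 tested genes. The 2 were the elongin Elob, at a log2 fold change of -0.39 (edgeR adjusted p = 0.12), and the HIF partner Arnt, at 0.15 (edgeR adjusted p = 0.14). Both were singled out after their values were seen.

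Glycolytic enzymes and other hypoxia targets varied differently between libraries. The mean log2(CPM + 0.5) of the 16 glycolytic enzymes was 7.5, 7.41 and 7.39 with lipids and 7.56, 7.70 and 7.48 without. The groups overlapped where replicate 1 with lipids lay just above replicate 3 without. For the 10 other hypoxia targets this mean was 4.86, 4.86 and 4.82 with lipids and 4.80, 4.86 and 4.82 without, in full overlap. Adm, with 130 counts over the 6 libraries, weighs as much in this mean as any other target. It deviated from its own mean by 0.30, 0.51 and 0.0015 with lipids and by -0.56, -0.033 and -0.22 without. A mean that leaves out Adm was not made, so this overlap may depend on it. The glycolytic mean minus the hypoxia mean was 2.64, 2.55 and 2.57 with lipids and 2.76, 2.84 and 2.67 without. The groups were narrowly apart, at most 2.64 with lipids and at least 2.67 without, and the group means differed by -0.16. Adm (log2 fold change 0.84) and Hk3 (-0.69) both widen this difference. Whether the groups stay apart when they are left out was not tested. With medians over the members in place of means the groups differed by -0.17 on average and overlapped. No p is given, because the members were chosen with results of these data known.

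**Figure D4:**
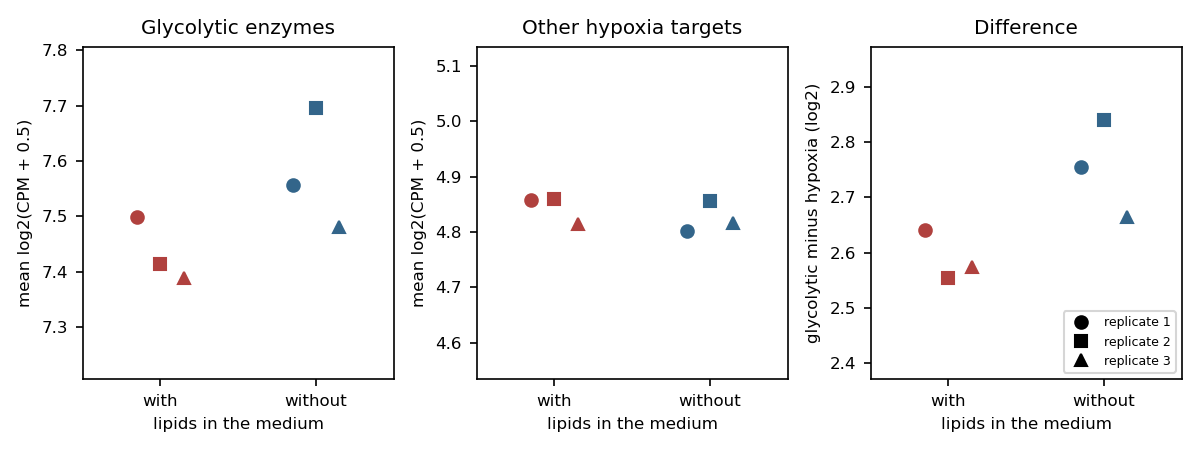
Mean log2(CPM + 0.5) over the 16 glycolytic enzymes (left), over the 10 other hypoxia targets (middle) and their difference (right) for each library with and without lipids, with equal spans on the y axes, which do not start at 0. The glycolytic means reach 7.70 in replicate 2 without lipids, the hypoxia means stay between 4.80 and 4.86, and the differences are 2.55 to 2.64 with lipids and 2.67 to 2.84 without. The scarce gene Adm weighs as much as any other target in the middle and right panels.

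Within each group the glycolytic enzymes tended to order the libraries alike. Without lipids, replicate 2 was the highest of the 3 for 13 of the 16 enzymes and the lowest for 0, and replicate 3 was the lowest for 12 and the highest for 0. Among the 10 other hypoxia targets replicate 2 was the highest for 4 and the lowest for 2. With lipids, replicate 1 was the highest for 12 of the 16 enzymes and replicate 3 the lowest for 10. These counts were not made over all tested genes. The coefficient of variation was larger without lipids for 27 of the 34 members, and its median over them was 4.25% with lipids and 10.0% without. It was larger without lipids for 74.2% of all tested genes as well. The part of culture or handling in this spread was not tested.

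**Figure D5:**
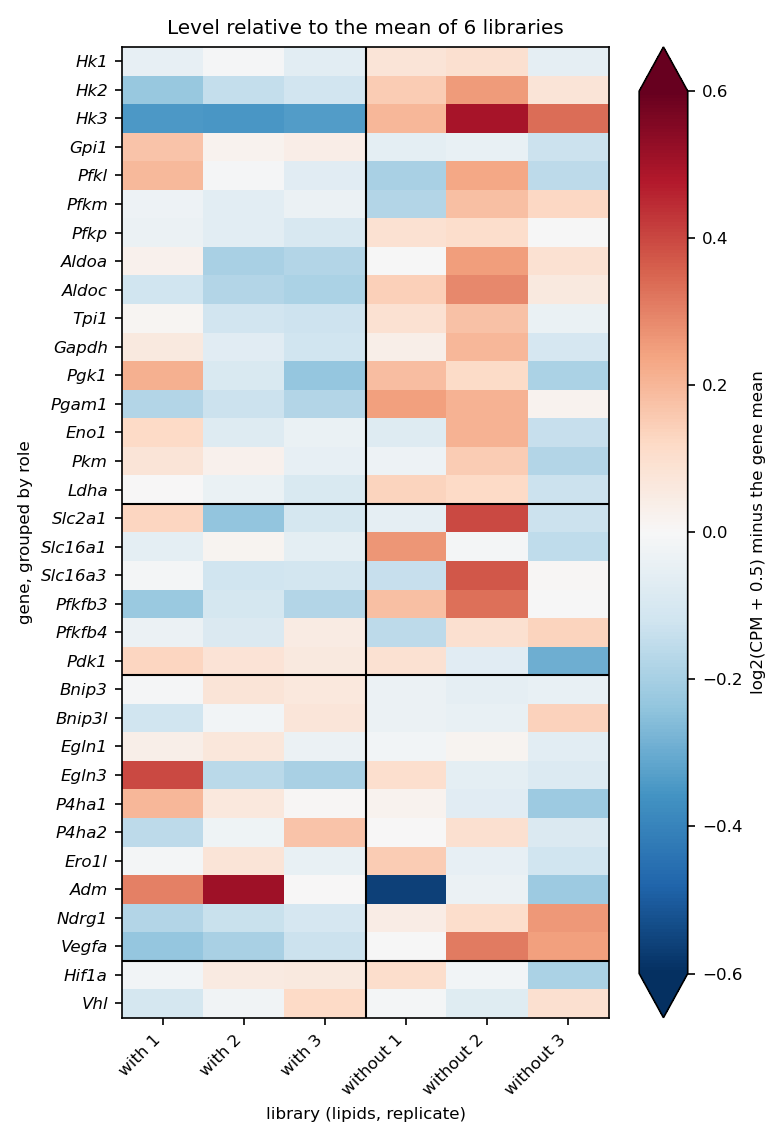
Heat map of log2(CPM + 0.5) minus the mean of the 6 libraries for each of the 34 genes (vertical axis, grouped by role with lines between roles) in each library (horizontal axis). Replicate 2 without lipids is above the mean for 15 of the 16 glycolytic enzymes, Hk3 shows the widest gap between the groups, and the other hypoxia targets show no common pattern.

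Further hypoxia-responsive genes came from a list of 32, of which 27 were tested, 4 were lower and 1 was higher with lipids. These are 14.8% lower and 3.70% higher, beside 6.87% and 4.58% over all tested genes. Bhlhe40, a circadian and stress-responsive repressor, averaged 11.6 ± 0.621 CPM with lipids and 30.5 ± 3.67 CPM without. At -1.39 (SE 0.10, edgeR adjusted p = 1.9e-05), its log2 fold change was larger in size than that of any of the 34 members. Its relative Bhlhe41 had a log2 fold change of -0.59 (edgeR adjusted p = 0.0011) and the chemokine receptor Cxcr4 one of -0.64 (edgeR adjusted p = 0.0054). The cytokine Mif, which falls outside the rule for named genes and was singled out after its value was seen, had a log2 fold change of -0.60 (edgeR adjusted p = 0.043) and lost its call with totals alone as the scaling (0.056), with limma-voom (0.058) and once any library with lipids or replicate 2 lacking them was left out (0.11 to 0.14).

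Of 30 isozymes and side regulators of glycolysis 20 were tested, 3 were lower and 0 were higher. The 3 are 15% of those tested, where 6.87% of all tested genes were lower. Eno2, the gamma enolase, averaged 11.5 ± 1.17 CPM with lipids and 20.4 ± 1.69 CPM without (log2 fold change -0.83, SE 0.10, edgeR adjusted p = 0.00059). Eno1, the main enolase and one of the 34 members, averaged 235 ± 17.4 CPM and 236 ± 31.3 CPM, with a log2 fold change of -0.0030 (95% interval -0.20 to 0.20). Eno3 had a log2 fold change of -0.46 (edgeR adjusted p = 0.041) and the hexose transporter Slc2a6 one of -0.57 (edgeR adjusted p = 0.039). Both missed the threshold with totals alone as the scaling (0.067 and 0.053) and in 5 of the 6 fits that each left out a library (0.076 to 0.20 for Eno3 and 0.078 to 0.18 for Slc2a6). Eno3 also missed it with DESeq2 (0.075) and with totals that omit the 20 most abundant genes (0.053), and Slc2a6, whose groups overlapped, with limma-voom (0.059).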

How the data were processed

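The 6 libraries were made with a strand-marking mRNA kit, per the labels' protocols. The authors deposited raw counts per Ensembl gene. The submitters' processing notes list the build GRCm38.p4 and the tools DESeq2, HTSeq and TopHat2 (2.1.0) with no roles, and the sources used here do not give the annotation release, the strand setting or the treatment of reads with several matches. Symbols, coordinates and exon lengths came from GENCODE M21 (GRCm38), which matched 46091 of 46603 identifiers. The members and gene lists were chosen with earlier results of these data known.

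Counts were tested with edgeR 4.0.16 (R 4.3.3) after filterByExpr (minimum count 10, minimum total 15) and scaling by the trimmed mean of M-values (TMM). The two-sided quasi-likelihood F test compared the groups, with Benjamini-Hochberg adjustment over all 12767 tested genes at 0.05. SE and 95% intervals were derived from the F statistic. CPM are counts per 1000000 after TMM scaling. The limit that a count of 0 allows, 3 counts, was, over library totals before TMM scaling, 0.118 to 0.154 CPM, for counting error only. Shared words are exact matches of 50 bases between GENCODE transcripts. Values per library are given for members past the threshold, members with an absolute log2 fold change of at least 0.3 and a set of well-known members, and up to 4 genes per pathway list are named by smallest p. The steps were tested on simulated counts. A few genes of the lists are not reported here by name. Alternatives were other scalings, other low-count filters, DESeq2 1.42.0, limma-voom (limma 3.58.1), a replicate block, a threshold of 0.01 and leaving out each library.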

Additional observations from a re-analysis of the deposited data

How the results depend on the processing

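Of the 34 members 7 were lower with lipids. The count stayed between 5 and 8 under the other scalings, filters and tools, was 1 at an adjusted p of 0.01, and ranged over 1 to 9 lower and 0 to 3 higher as each library was left out. Members higher numbered 2 for scaling by totals alone and 1 for no filter. Genes higher over the whole table numbered 1241 for totals alone and 1009 for no filter, beside 585. An adjusted p of 0.01 left 216 higher and 444 lower, and leaving out libraries gave 219 to 1566 higher and 423 to 1975 lower. The pathway lists held 4 higher and 11 lower genes, 8 and 6 for totals alone, 2 and 6 at 0.01, and 1 to 11 and 6 to 24 as libraries were left out. The cause was not tested.

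With totals alone, the sign turned for Pgk1 at 0.0063, Eno1 at 0.074, Pfkfb4 at 0.022, Bnip3l at 0.035, P4ha2 at 0.073 and Vhl at 0.068. With totals that left out the 20 most abundant genes, the sign turned for Eno1 at 0.033, P4ha2 at 0.032 and Vhl at 0.026. With median-of-ratios scaling, the sign turned for Eno1 at 0.0030 and P4ha2 at 0.0018. With no filter, the sign turned for Eno1 at 0.0030 and P4ha2 at 0.00047. With DESeq2, the sign turned for Eno1 at 0.0030 and P4ha2 at 0.0018. With limma-voom, the sign turned for Eno1 at 0.0028. With the replicate block, the sign turned for Eno1 at 0.0021. Ranges that crossed 0 as each library was left out were Bnip3l -0.089 to 0.025, Egln3 -0.21 to 0.19, Eno1 -0.066 to 0.11, Ero1l -0.043 to 0.098, Hif1a -0.011 to 0.14, P4ha2 -0.097 to 0.070, Pfkfb4 -0.14 to 0.0060, Pfkl -0.0076 to 0.22, Pgk1 -0.21 to 0.024, Pkm -0.040 to 0.12, Slc16a1 -0.17 to 0.057, Slc2a1 -0.26 to 0.027 and Vhl -0.072 to 0.045. None of these members passed the test in the fit that kept all libraries.

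The replicate block gave 7 members lower, and 715 higher and 937 lower genes in all. It ended the calls of Phka2 (edgeR adjusted p = 0.053), Sdhc (0.075) and Eno3 (0.055). Libraries of the same number correlated at -0.035, -0.14 and 0.20 in their deviations from group means, so the numbers were not taken as a pairing. With 3 libraries a group no permutation p of a ratio can fall under 0.1.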

Other observations

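In routes that branch from glycolysis or follow it the shares of called genes lay near the 11.5% called over all tested genes, at 8.33% lower for pentose phosphate and, in each direction, 6.25% for glycogen, 7.14% for pyruvate entry and 5% for the TCA cycle. Of 12 pentose phosphate genes, all tested, 1 was lower with lipids. This was Taldo1, transaldolase, averaging 300.1 ± 2.60 CPM with lipids and 385 ± 34.9 CPM without, where ± is the SD of 3 libraries (log2 fold change -0.36, edgeR adjusted p = 0.0062). Tkt, transketolase, which acts beside it and was singled out after its value was seen, was at -0.30 and did not pass (edgeR adjusted p = 0.051). Of 16 glycogen genes 1 was lower and 1 higher. Gyg, glycogenin, which primes glycogen chains, averaged 119 ± 3.97 CPM and 175 ± 12.8 CPM (log2 fold change -0.56, SE 0.066, edgeR adjusted p = 0.00039). Phka2, a phosphorylase kinase subunit, was higher by 0.22 on the log2 scale (edgeR adjusted p = 0.033).

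Of 14 genes for the entry of pyruvate into mitochondria 1 was higher and 1 lower. Pdk4, an inhibitory kinase of pyruvate dehydrogenase, was higher by 0.72 on the log2 scale (edgeR adjusted p = 0.026), though scarce at 2.49 ± 0.120 CPM and 1.49 ± 0.257 CPM, and missed the threshold in DESeq2 (0.062). Pdp1, the opposing phosphatase, had a log2 fold change of -0.30 (edgeR adjusted p = 0.023). Of 20 TCA cycle genes, fumarate hydratase Fh1 was higher by 0.32 (SE 0.060, edgeR adjusted p = 0.0065) and the succinate dehydrogenase subunit Sdhc had a log2 fold change of -0.20 (edgeR adjusted p = 0.044). With totals alone as the scaling Pdp1 (0.068) and Sdhc (0.17) missed the threshold. Each of Phka2, Pdk4, Pdp1, Fh1 and Sdhc also missed it once some single library was left out, with largest edgeR adjusted p of 0.15, 0.11, 0.11, 0.054 and 0.19.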
